A study of Mus musculus with 6 samples.

Results

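The proteasome is the large protease that degrades proteins tagged with ubiquitin, and the results below concern the genes of its subunits, activators, inhibitor and assembly chaperones in mouse round spermatids. The genes were taken by symbol, as every row of the footprint table named Psm, then a letter from a to g, then a number. The rule found 45 of 22770 rows, and all 45 had a mean of at least 1 FPKM, the filter for testing, which 15578 rows passed. They are 8 alpha and 8 beta subunits of the core particle, 6 ATPases and 14 non-ATPase genes of the regulatory particle, 4 activator genes, 1 inhibitor gene and 4 assembly chaperone genes. Immunoproteasome genes Psmb8 and Psmb9 and the thymus gene Psmb11 are not analysed here.

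The core particle, called 20S, is a barrel of alpha and beta rings. Its proteolytic sites sit on the beta subunits PSMB6, PSMB7 and PSMB5, and immune cells can replace them with inducible forms, PSMB10 standing in for PSMB7. The regulatory particle, called 19S, binds ubiquitin chains, unfolds the substrate with a ring of ATPases and feeds it into the barrel. Male germ cells have a form of their own in which the alpha subunit PSMA8 takes the place of PSMA7, and the activator PSME4, also called PA200, is known for the degradation of acetylated histones when sperm chromatin is rebuilt.

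Ribosome footprints, the stretches of mRNA covered by translating ribosomes, were sequenced from testis round spermatids of 3 samples labelled wild type and 3 labelled Eif5a SKO. EIF5A is a hypusine-carrying factor that keeps ribosomes moving through sequences that are slow to translate. The labels spell out neither SKO nor the driver of any recombinase, strain or age, so the cells in which the gene was removed cannot be stated. The values are FPKM, footprint counts divided by transcript length and by library size, so that a level is a density per length, and a difference between genotypes can come from mRNA amount, initiation or ribosome speed. RNA levels are not analysed here. Lysis was in cycloheximide, which holds ribosomes in place, and RNase I trimmed the mRNA to footprints. The series' design text, written for chromatin accessibility, gives sorted cells of 3 mice in each group, and whether the footprint samples came from separate mice is not stated.

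The targeted gene followed the labels: Eif5a had 34.2, 48.8 and 61.9 FPKM in the wild-type libraries against 1.84, 1.93 and 2.99 FPKM in the SKO libraries. Of the round spermatid markers, 10 of 10 were present. The acrosome gene Acrv1 had 287 to 540 FPKM in wild type and 405 to 875 FPKM in SKO. The 10 markers summed to 612 to 1145 FPKM in wild type and 859 to 1805 FPKM in SKO. Their median log2 fold change, SKO minus wild type, lay 0.43 above that of all tested rows, with 7 of 10 above it. Spermatocyte markers summed to 76.1 to 127 FPKM against 108 to 250 FPKM. Elongating spermatid markers summed to 85.2 to 140 FPKM against 83.5 to 117 FPKM. These germ cell sums overlapped between the groups. Taken singly, the round spermatid markers Spaca1, Tssk1, Izumo1 and Pgk2 were higher in every SKO library than in any wild-type library. That was so for 10.9% of all tested rows, and the other round spermatid markers overlapped. The part of germ cell stage in the proteasome values was not tested. Summed markers of Sertoli, Leydig and peritubular cells were higher in SKO, and those of erythroid cells were lower. The Sertoli sum was 7.97 to 17.9 FPKM in wild type and 48.1 to 70.5 FPKM in SKO, over the 3 of 9 markers in the table. The Leydig sum was 11.8 to 18.2 FPKM against 60.6 to 116 FPKM over 6 of 6 markers, and the peritubular sum 4.54 to 6.19 FPKM against 25.8 to 39.2 FPKM over 4 of 6. Immune markers, 5 of 7 in the table, summed to 4.13 to 10.9 FPKM in wild type and 5.45 to 9.80 FPKM in SKO. Erythroid markers, 2 of 3 in the table, summed to 27.1 to 58.6 FPKM in wild type and 9.13 to 23.4 FPKM in SKO, without overlap. Fewer cells of a type and less RNA per cell cannot be told apart in such samples. Read totals are not given in the file; relative depths taken from the steps between low values ran from 0.503 in SKO replicate 2 to 1 in SKO replicate 1.

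The promoters of proteasome genes are known for binding sites of the transcription factor NFE2L1, which raises proteasome synthesis when degradation is impaired. Upstream sequence, as RefSeq has it on GRCm38.p6, could be matched to 37 of the 45 genes. The core of the antioxidant response element, TGACNNNGC, was searched on both strands in the 250 bases before the annotated start and was found in 5 of 40 promoters, 12.5%, against 10.2% of the 32851 promoters in the reference table. The genes were Psmb5, Psmb6, Psmc6, Psmd9 and Psmd12. The pentamer CCAAT, also searched on both strands, was found in 12 of 40, 30%, against 33.8% of all. No match of one motif overlaps one of the other in the sequences shown. The shares lay close to those of all promoters, and a match is not a measured binding site. The upstream sequences of Psmb5 and Psmd10 and the bases around the match in Psmb6 are shown because the results turn on these genes: Psmb5 and Psmb6 encode catalytic subunits of the same ring, and Psmd10 encodes an assembly chaperone. They run 5′ to 3′ on the strand of the gene, and capitals mark the matches to either motif. The match of Psmb6 lies within the annotated span of the gene, before the start of another of its transcripts.
Psmb5, chr14:54617996-54618245, minus strand: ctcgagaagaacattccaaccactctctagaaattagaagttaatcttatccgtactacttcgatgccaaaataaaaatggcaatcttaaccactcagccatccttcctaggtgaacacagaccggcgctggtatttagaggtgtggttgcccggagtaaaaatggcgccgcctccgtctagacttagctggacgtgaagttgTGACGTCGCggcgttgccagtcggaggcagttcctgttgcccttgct
Psmb6, chr11:70525338-70525356, plus strand: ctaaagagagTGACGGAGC
Psmd10, chrX:140956712-140956961, minus strand: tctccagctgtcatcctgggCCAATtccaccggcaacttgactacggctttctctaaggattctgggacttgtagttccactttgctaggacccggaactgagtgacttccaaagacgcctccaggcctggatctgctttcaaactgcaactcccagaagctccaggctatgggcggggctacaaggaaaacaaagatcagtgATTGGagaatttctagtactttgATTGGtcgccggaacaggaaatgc

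The median change of the proteasome genes between the genotypes was close to that of all tested rows. SKO was compared with wild type in 1 fit over all tested rows (limma on log2(FPKM + 1), two-sided, Benjamini-Hochberg adjustment, threshold 0.05). Of the 45 genes 0 were higher and 0 lower, against 0.128% of all tested rows called in either direction, 0.109% higher and 0.0193% lower. Of the rows called, 85% were higher in SKO, and 74.8% were after the TMM-type scaling described next. The smallest limma adjusted p among the 45 was 0.257. At an unadjusted p under 0.05 there were 2 genes, 1 higher and 1 lower, a share of 4.44% against 11.0% of all tested rows, of which 8.15% were higher and 2.83% lower. The median log2 fold change of the 45 was 0.12, and that of all tested rows was 0.13, so the difference was -0.01. By gene, 22 lay above the all-row median and 23 below. Leaving out 1 library moved this difference between -0.15, without wild-type replicate 1, and 0.16, without SKO replicate 1.

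Dividing each library by a trimmed-mean scaling factor (TMM-type) left the count at 0, against 1.02% of all rows (0.764% higher and 0.257% lower), and gave 8 genes at an unadjusted p under 0.05, 17.8% against 15.6%. By direction, 7 of the 45 genes were lower in SKO at that level, beside 6.71% of all rows, and 1 of the 45 was higher, beside 8.90%. The lower ones were Psmb4, Psmb5, Psmb7, Psmc1, Psmc2, Psmd5 and Psmg1, and the higher one was Psmd10. Quantile normalization brought genes past the test, 4 of 45 or 8.89%, against 2.86% of all rows. They were Psmb4, Psmb5 and Psmb7, lower in SKO, and Psmd10, higher in SKO. The other pseudocounts, filters, scalings and eBayes options, the replicate block and the leaving out of any 1 library left the count at 0. The standard error of a single gene was 0.33 to 0.64 on the log2 scale with the deposited values.

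**Figure D1:**
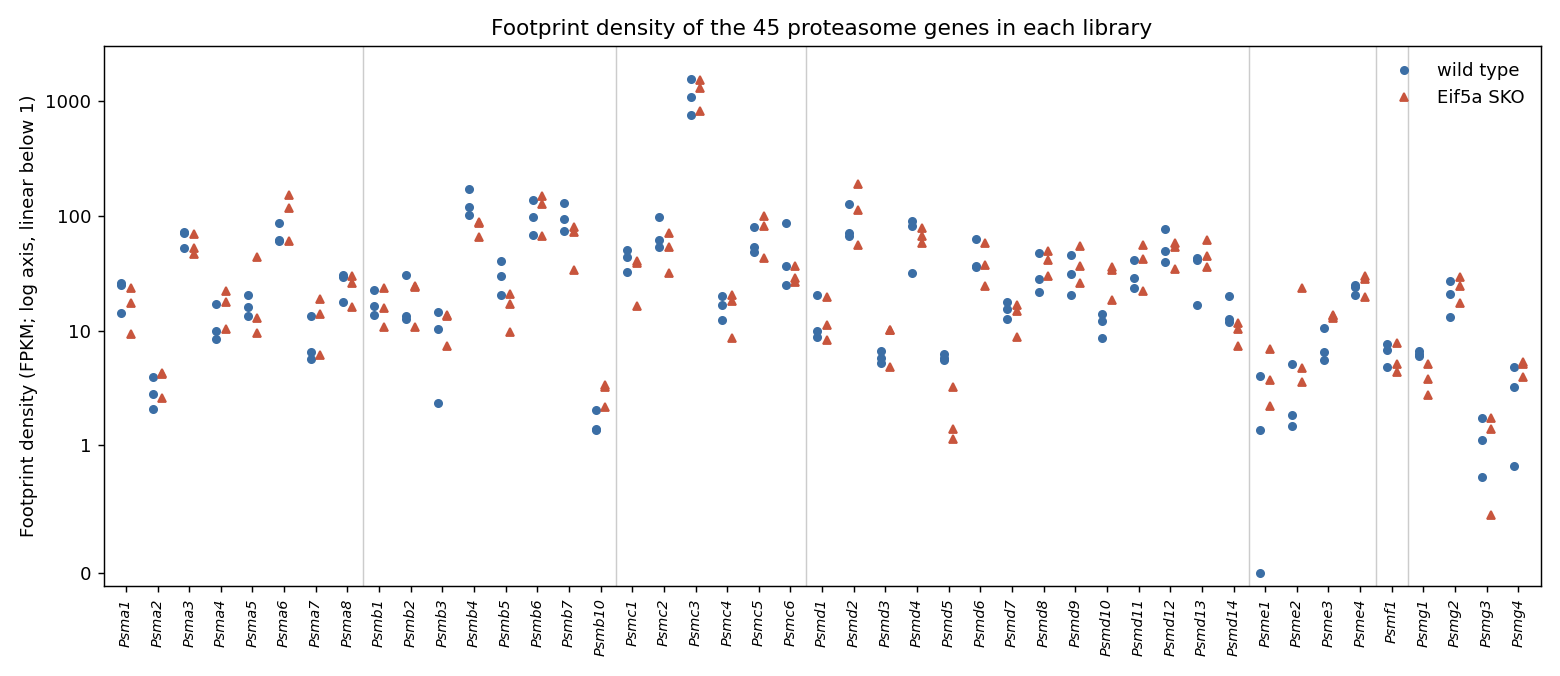
Footprint density in FPKM (vertical axis, logarithmic above 1 and linear below) of the 45 proteasome genes, ordered by class from alpha core to assembly chaperones; circles are the 3 wild-type and triangles the 3 SKO libraries, and vertical lines part the classes. Psmc3 stands above all others at 755 to 1551 FPKM, and the order of the genes is much the same in both genotypes.

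Density differed widely between genes whose products are built into the same particle. Among the 14 constitutive core subunits the mean density over the 6 libraries ran from 3.31 FPKM for Psma2 to 107 FPKM for Psmb6, a 32.2-fold range with a median of 19.3 FPKM. Among the 6 ATPases it ran from 16.0 FPKM for Psmc4 to 1169 FPKM for Psmc3. Psmc3 encodes the ATPase RPT5 and lies on chromosome 2 (91054016 to 91059438, GRCm38). It had 755, 1071 and 1551 FPKM in the wild-type libraries against 808, 1529 and 1302 FPKM in the SKO libraries, and held 42.2% to 47.2% of the summed density of the 45 genes in each library. No other row of the table has the same 6 values as a proteasome gene. The densities are per length of transcript while footprints lie on coding sequence, and the part of transcript structure in the range between genes was not tested. The ranking was stable between libraries. Spearman correlations of density across the 45 genes, which are not independent, were 0.945 to 0.970 within wild type, 0.944 to 0.957 within SKO and 0.90 to 0.937 between the genotypes.

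Libraries differed in the position of the whole set. The median log2 level of the 45 genes exceeded that of all tested rows by 2.11, 2.31 and 2.43 in the wild-type libraries and by 1.72, 2.41 and 2.13 in the SKO libraries. SKO replicate 1 was the lowest and the groups overlapped. For this reason plain FPKM ratios between genes of 1 library, which are free of library scaling, are given below beside the levels. Where a ratio was tested, the test used differences of log2(FPKM + 1), which are not fully free of scaling at low values.

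**Figure D2:**
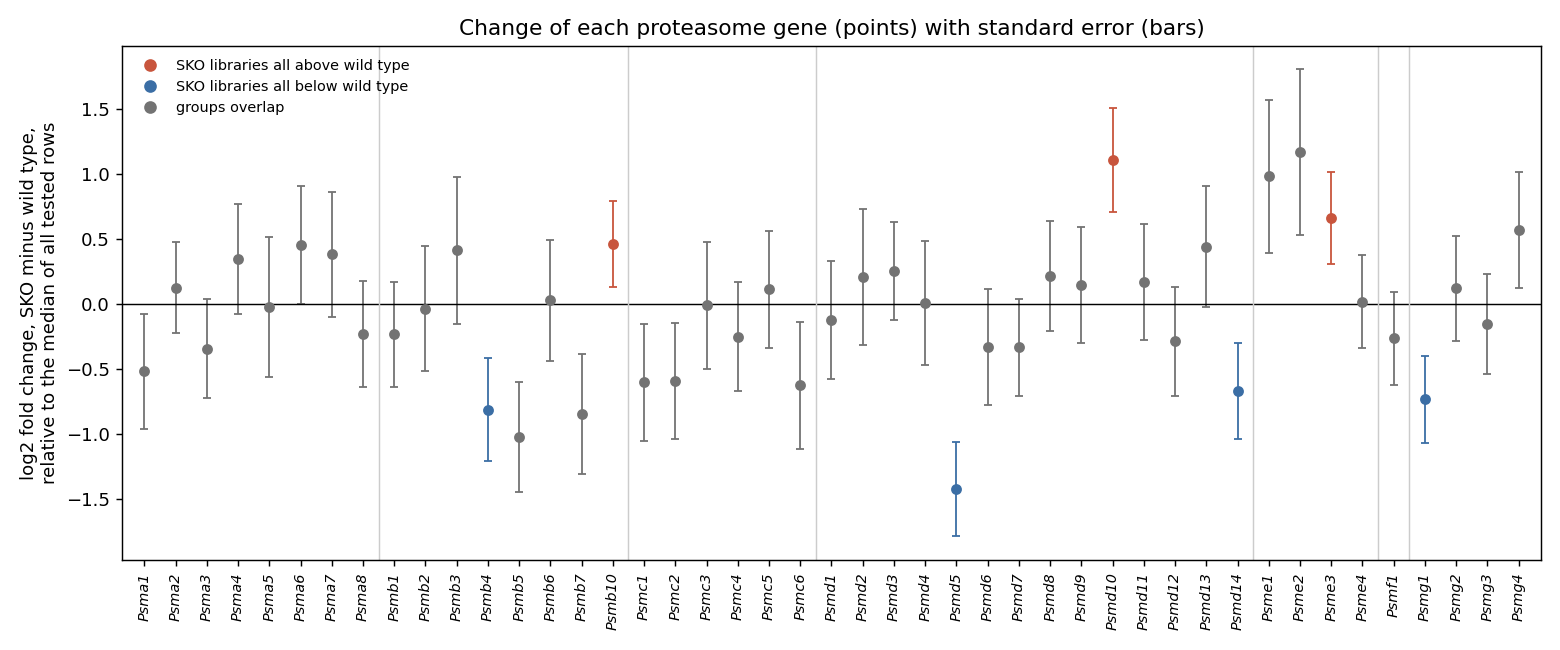
Log2 fold change of each proteasome gene, SKO minus wild type on the log2(FPKM + 1) scale, after subtracting the median of all tested rows (vertical axis), with its standard error as bars; colour marks the genes for which the 3 SKO libraries lie all above or all below the 3 wild-type libraries. The largest values are those of Psmd5 below zero and of Psme2 and Psmd10 above zero, and many genes lie within 1 standard error of the all-row median.

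The alpha ring, which forms the gate of the core particle, showed no gene past the test, and the groups overlapped for 8 of 8 genes. The class median was 0.05 above all rows, and it ran from -0.10 without SKO replicate 2 to 0.24 without SKO replicate 1. Psma6 and Psma3 were its densest genes. Psma6 had 59.6, 61.7 and 86.4 FPKM in the wild-type libraries against 60.4, 152 and 117 FPKM in the SKO libraries (log2 fold change 0.58, SE 0.45). Psma3 had 52.4, 71.1 and 71.4 FPKM in the wild-type libraries against 46.4, 68.9 and 52.5 FPKM in the SKO libraries. Psma4 had 9.96, 8.44 and 16.9 FPKM against 10.3, 22.3 and 17.7 FPKM (log2 fold change 0.47, SE 0.42, limma adjusted p = 0.721). For Psma6 and Psma4, 2 of 3 SKO values lay above every wild-type value and 1 lay within the wild-type range. For Psma3, 1 SKO value lay below the wild-type range.

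The testis subunit gene Psma8 was more densely covered than the gene of the subunit it replaces. Psma8, on chromosome 18, had 17.5, 29.3 and 30.5 FPKM in the wild-type libraries against 16.2, 29.7 and 26.1 FPKM in the SKO libraries. The log2 fold change was -0.10 (SE 0.41), with a 95% interval of -1.02 to 0.81. Psma7, on chromosome 2, had 6.50, 5.69 and 13.4 FPKM in the wild-type libraries against 6.14, 13.8 and 18.7 FPKM in the SKO libraries (log2 fold change 0.51, SE 0.48). The Psma8 to Psma7 ratio was 2.70, 5.16 and 2.27 in the wild-type libraries against 2.63, 2.15 and 1.40 in the SKO libraries. Psma8 was the denser gene in 6 of 6 libraries. The ratio averaged 3.38 ± 1.56 in wild type and 2.06 ± 0.622 in SKO (SD, n = 3), and the groups overlapped. On the log2(FPKM + 1) scale the difference was -0.61 (exact two-sided permutation test, p = 0.2, adjusted over 2 ratios 0.2). With 20 assignments of 3 against 3 the smallest possible p is 0.1.

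In the beta ring, the genes of the catalytic subunits differed from each other between the genotypes, a pattern noticed after the values were seen and therefore given without a test. Psmb6, which encodes the caspase-like subunit (chromosome 11, 70525324 to 70527858), was covered at 67.5, 97.1 and 136 FPKM in the wild-type libraries against 65.9, 149 and 125 FPKM in the SKO libraries. Psmb5 encodes the chymotrypsin-like subunit, the main target of proteasome inhibitors (chromosome 14, 54614120 to 54617995). Its density was 20.5, 29.9 and 40.3 FPKM in the wild-type libraries against 9.77, 20.9 and 17.1 FPKM in the SKO libraries. Psmb7, the gene of the trypsin-like subunit (chromosome 2, 38588046 to 38643952), was covered at 74.2, 93.6 and 130 FPKM in the wild-type libraries against 33.8, 80.1 and 72.3 FPKM in the SKO libraries. Taken as levels, the groups overlapped for all of these, by 1 library each for Psmb5 and Psmb7.

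The Psmb5 to Psmb6 ratio was 0.304, 0.308 and 0.297 in the wild-type libraries against 0.148, 0.140 and 0.137 in the SKO libraries. The means were 0.303 ± 0.00559 and 0.142 ± 0.00591 (SD, n = 3), a 2.14-fold difference. The Psmb7 to Psmb6 ratio was 1.1, 0.964 and 0.957 in the wild-type libraries against 0.513, 0.539 and 0.577 in the SKO libraries, a 1.85-fold difference of the means. Psmb4, a structural beta subunit (chromosome 3, 94884324 to 94886958), gave ratios to Psmb6 of 1.51, 1.23 and 1.25 in the wild-type libraries against 0.985, 0.578 and 0.698 in the SKO libraries. In each case the SKO values lay below all wild-type values. The Psmb5 to Psmb7 ratio differed little, at 0.302 ± 0.0224 and 0.262 ± 0.0261, and its groups overlapped. The pseudogene Psmb6-ps2, which could share reads with Psmb6, had 8.59, 15.1 and 15.3 FPKM in the wild-type libraries against 10.9, 25.8 and 20.2 FPKM in the SKO libraries.

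Set against the whole core, Psmb5 was again the lower one. Its log2 level minus the median of the other 13 constitutive core genes came to 0.60, 0.56 and 0.65 in the wild-type libraries and to -0.13, -0.20 and -0.13 in the SKO libraries. Its ratio was below the wild-type range in every SKO library for 11 of 13 partners, and the same held for 8 of 13 partners for Psmb7 and for Psmb4. Psma1 was below for 6 partners and above for 1, and Psmb1 was below for 4 and above for 3. Psma6 had the opposite pattern to Psmb5 for 7 of 13 partners, Psma2 for 6 of 13, and Psma4 and Psma7 for 5 of 13 each. Psmb6 itself was above for 5 partners and below for 1. In all, 41 of the 91 ratios among the core genes had groups that did not overlap, 45.1%. Among all protein-coding rows at least as dense as Psma2, the least dense core gene, 27.6% of ratios did not overlap. That background sets only a lower bound on density and is not matched to the densities of the core genes. The ratios share genes and are not separate measurements. Among the 6 ATPases 4 of 15 ratios, 26.7%, and among the 14 non-ATPase genes 38 of 91, 41.8%, did not overlap.

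**Figure D3:**
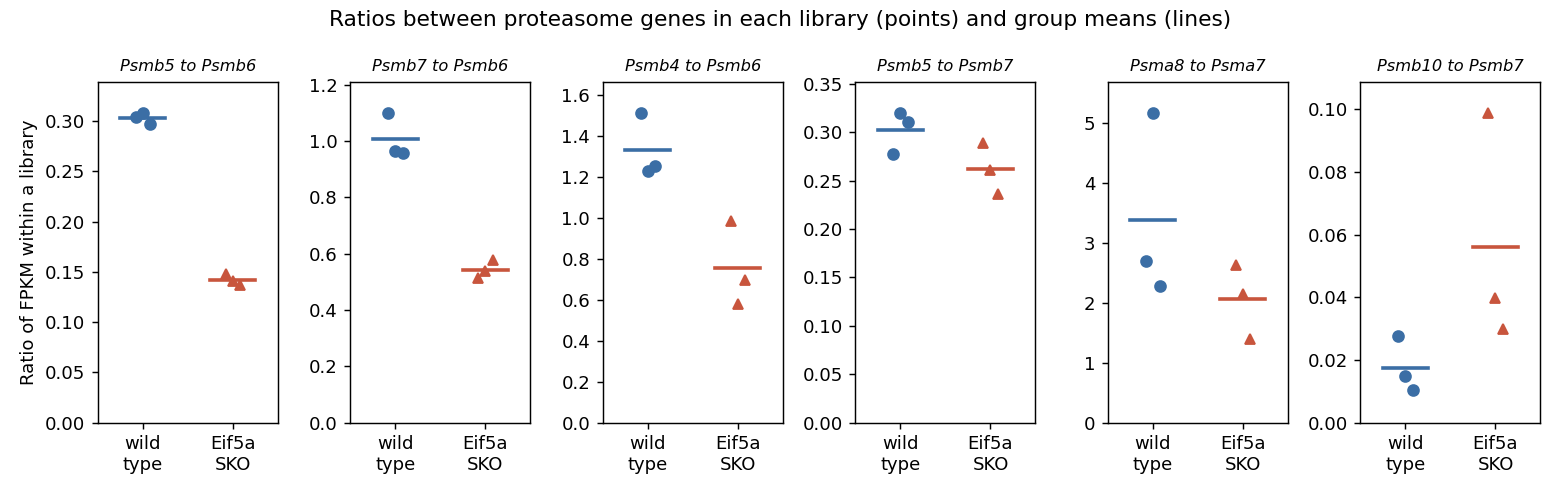
Ratios of FPKM between pairs of proteasome genes within each library (vertical axes, each starting at 0), with circles for the 3 wild-type and triangles for the 3 SKO libraries and lines for the group means. The ratio of Psmb5 to Psmb6 falls into narrow bands at 0.297 to 0.308 and 0.137 to 0.148, whereas that of Psma8 to Psma7 overlaps between the groups.

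In the fit over all rows none of these beta genes passed, and the median of the 8 beta genes was -0.13 relative to all rows, with 3 above and 5 below. That median changed sign without SKO replicate 1 (0.077) and without wild-type replicate 3 (0.028). Psmb4 had 102, 119 and 169 FPKM in the wild-type libraries against 64.9, 86.0 and 87.3 FPKM in the SKO libraries, with no overlap. Its log2 fold change was -0.69 (SE 0.40, limma adjusted p = 0.572). For Psmb5 the value was -0.90 (SE 0.43, limma adjusted p = 0.482) and for Psmb7 -0.72 (SE 0.46, limma adjusted p = 0.609). After TMM-type scaling the log2 fold changes were -0.85, -1.06 and -0.89 with limma adjusted p of 0.10, 0.0919 and 0.149 for Psmb4, Psmb5 and Psmb7. Under quantile normalization they passed, with limma adjusted p of 0.0321, 0.0269 and 0.0307. The log2 fold change of Psmb6 was 0.15 (SE 0.47) with the deposited values, and it lay above the all-row median there but 0.02 below it after TMM-type scaling (-0.02).

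Psmb10, the inducible partner of Psmb7, was sparsely covered. It had 2.04, 1.38 and 1.35 FPKM in the wild-type libraries against 3.34, 3.19 and 2.17 FPKM in the SKO libraries, and every SKO value lay above every wild-type value (log2 fold change 0.59, SE 0.33, limma adjusted p = 0.557). The Psmb10 to Psmb7 ratio was 0.0276, 0.0147 and 0.0104 in the wild-type libraries against 0.0987, 0.0399 and 0.0300 in the SKO libraries. This difference of 1.31 on the log2(FPKM + 1) scale reached the smallest p that the design allows (exact two-sided permutation test, p = 0.1, adjusted over 2 ratios 0.2). Of the antigen presentation genes, with which the inducible subunits are known to be expressed, 7 of 9 were in the table and 0 passed. Their median lay 0.60 above all rows, with 5 of the 7 above the all-row median. Tapbp, the densest of them, lay below it (-0.35), as did Nlrc5 (-0.19). The summed density of the list overlapped, at 31.2 to 51.4 FPKM in wild type and 41.3 to 72.7 FPKM in SKO. Immune marker sums overlapped between the groups while the Sertoli, Leydig and peritubular sums did not, as given above, and the part of somatic cells in the Psmb10 values was not tested.

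The ATPases form the ring that unfolds substrates. Their median lay below all rows (-0.42), with 5 of 6 genes under the all-row median (Psmc3 lay above it with a pseudocount of 5), 0 past the test and overlapping groups for all 6. The median was -0.15 without SKO replicate 1 and -0.26 without wild-type replicate 3. Psmc1 had 32.5, 44.0 and 50.5 FPKM in the wild-type libraries against 16.5, 40.2 and 38.9 FPKM in the SKO libraries (log2 fold change -0.48, SE 0.45). Psmc2 had 53.4, 61.8 and 97.6 FPKM in the wild-type libraries against 31.8, 71.0 and 53.4 FPKM in the SKO libraries. The exception was Psmc5, with 48.1, 53.5 and 80.1 FPKM in the wild-type libraries against 42.4, 99.0 and 81.1 FPKM in the SKO libraries (log2 fold change 0.24, SE 0.45).

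The non-ATPase genes contain the scaffold and the ubiquitin receptors as well as base assembly chaperones. Their median was 0.08 relative to all rows, with 8 above and 6 below and 0 past the test. It ran from -0.17 without wild-type replicate 1 to 0.16 without wild-type replicate 3. Psmd2, the densest of the 14 and the gene of a scaffold subunit, had 70.1, 66.3 and 127 FPKM in the wild-type libraries against 55.5, 190 and 113 FPKM in the SKO libraries. Psmd4, the gene of a ubiquitin receptor, had 31.4, 81.3 and 88.9 FPKM against 58.3, 78.5 and 66.3 FPKM. Both spread more within a genotype than between them. Psmd14, the gene of the deubiquitinase that strips ubiquitin chains from substrates, had 20.0, 12.6 and 11.8 FPKM in the wild-type libraries against 7.40, 11.5 and 10.3 FPKM in the SKO libraries. Its groups did not overlap, by a narrow gap (log2 fold change -0.54, SE 0.37, limma adjusted p = 0.629).

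Of the 45 genes, chaperones that assemble the ATPase ring had the smallest unadjusted p, with differences in opposite directions, and they missed the adjusted threshold. Psmd5 encodes the chaperone S5b (chromosome 2, 34852087 to 34870965). Its density was 6.23, 5.75 and 5.53 FPKM in the wild-type libraries against 1.39, 1.14 and 3.19 FPKM in the SKO libraries, so that every SKO value was below every wild-type value. The means were 5.84 ± 0.357 and 1.91 ± 1.12 FPKM (SD, n = 3), a 3.06-fold difference. The log2 fold change was -1.30 (SE 0.36, 95% interval -2.11 to -0.48, limma adjusted p = 0.257). At this low density the size of the change depended on the pseudocount. Relative to all rows it was -1.43 with a pseudocount of 1, -1.87 with 0.1 and -0.72 with 5. The mean of Psmd5 over the 6 libraries, 3.87 FPKM, was under the alternative filter of 5 FPKM. Psmd10 encodes gankyrin and is the only one of the 45 genes on the X chromosome (140948425 to 140956711). Its density was 8.61, 12.1 and 14 FPKM in the wild-type libraries against 18.4, 35.5 and 34.0 FPKM in the SKO libraries, again without overlap. The means were 11.6 ± 2.74 and 29.3 ± 9.42 FPKM (SD, n = 3), a 2.53-fold difference with a log2 fold change of 1.24 (SE 0.40, limma adjusted p = 0.307). Psmd9, the gene of the third such chaperone, had 20.5, 30.9 and 45.3 FPKM in the wild-type libraries against 25.9, 54.6 and 36.3 FPKM in the SKO libraries, with overlap.

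Psmd10 was set beside the other genes of its chromosome. The 363 tested X-linked protein-coding genes had a median log2 fold change of 0.77, against 0.10 for 10720 autosomal ones. Of these X-linked genes 27.3% had a larger value than Psmd10, and of the autosomal genes 2.43% did. All SKO libraries lay above all wild-type libraries, as for Psmd10, in 49.9% of the X-linked genes and in 9.76% of the autosomal ones. The Psmd5 to Psmd10 ratio was 0.723, 0.475 and 0.395 in the wild-type libraries against 0.0754, 0.0320 and 0.0940 in the SKO libraries. This pair was chosen for its difference, which is given without a test.

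**Figure D4:**
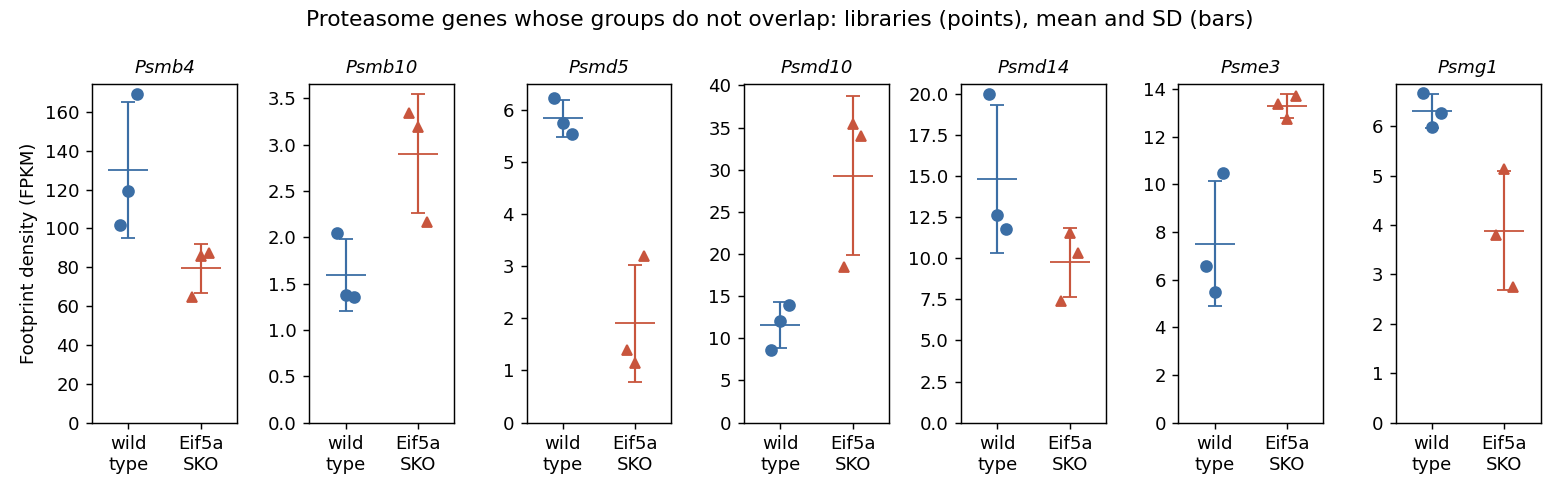
Footprint density in FPKM (vertical axes, each starting at 0) of the 7 proteasome genes whose groups do not overlap; points are libraries, horizontal marks group means and bars 1 SD. Psmb10, Psmd10 and Psme3 are higher in every SKO library than in any wild-type library, and Psmb4, Psmd5, Psmd14 and Psmg1 are lower.

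Activators open the core particle without ubiquitin. Psme1 and Psme2 encode the interferon-inducible PA28 complex, Psme3 encodes the nuclear PA28 gamma and Psme4 encodes PA200. All 4 genes lay above the all-row median with the deposited values, by 0.82 at the class median, but Psme4 was below it after TMM-type scaling (-0.02), and 0 passed. The class median was 0.44 without wild-type replicate 2, 0.54 without SKO replicate 1 and 0.45 with a pseudocount of 5. Psme3 had 6.57, 5.49 and 10.5 FPKM in the wild-type libraries against 13.4, 12.7 and 13.7 FPKM in the SKO libraries, with no overlap (log2 fold change 0.79, SE 0.36, limma adjusted p = 0.459). Psme1 had 4.03, 0 and 1.36 FPKM in the wild-type libraries against 6.96, 2.19 and 3.68 FPKM in the SKO libraries. Psme2 had 1.84, 5.10 and 1.49 FPKM in the wild-type libraries against 4.73, 23.4 and 3.55 FPKM in the SKO libraries and the means differed 3.76-fold. SKO replicate 2 stood apart, and without it the log2 fold change relative to all rows was 0.50 in place of 1.17. Both genes overlapped between the genotypes. Psme2b, a related row that could share reads with Psme2, had 0.226 to 1.84 FPKM. Sertoli, Leydig and peritubular marker sums were higher in SKO, as for Psmb10, and their part in the activator values was not tested.

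The spermatid activator gene Psme4 (chromosome 11, 30771775 to 30881150) was the densest activator gene and its groups overlapped. It had 23.7, 25.0 and 20.2 FPKM in the wild-type libraries against 29.7, 28.0 and 19.7 FPKM in the SKO libraries. The log2 fold change was 0.15 (SE 0.36), with a 95% interval of -0.66 to 0.95. The inhibitor gene Psmf1, whose product PI31 binds the core particle, had 4.79, 6.73 and 7.57 FPKM against 5.15, 7.81 and 4.33 FPKM.

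The Psmg genes encode chaperones that build the core particle. Psmg1 and Psmg2 act as a pair, as do Psmg3 and Psmg4, yet the partners differed in density. Psmg1 had 6.66, 5.98 and 6.26 FPKM in the wild-type libraries against 3.8, 5.13 and 2.74 FPKM in the SKO libraries, with no overlap (log2 fold change -0.61, SE 0.34, limma adjusted p = 0.551). Its partner Psmg2 had 13.1, 20.9 and 26.7 FPKM in the wild-type libraries against 17.5, 29.4 and 24.6 FPKM in the SKO libraries. Psmg3 had 1.72, 1.11 and 0.749 FPKM in the wild-type libraries against 0.452, 1.72 and 1.39 FPKM in the SKO libraries. Psmg4 had 0.842, 4.79 and 3.24 FPKM against 3.98, 5.29 and 5.16 FPKM. The groups of Psmg3 and Psmg4 overlapped. Their means over the 6 libraries were 1.19 and 3.88 FPKM, and their read counts are not known.

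Across the 45 genes, 3 had all SKO libraries above wild type, 6.67% against 10.9% of all tested rows, and 4 had all SKO libraries below, 8.89% against 4.78%. The 18 genes outside the rule for naming had log2 fold changes between -0.54 and 0.57 and limma adjusted p between 0.629 and 0.999.

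Beyond the subunits, the list of proteasome-associated and ubiquitin shuttle genes had 34 of 36 members in the table and 32 tested, 0 past the test and a median slightly below all rows (-0.12). An unadjusted p under 0.05 was found for 4 of the 32, beside 11.0% of all tested rows, so the share was near the background. Txnl1, a thioredoxin-like protein of the regulatory particle, had 7.0, 8.71 and 11.6 FPKM in the wild-type libraries against 21.6, 30.3 and 24.0 FPKM in the SKO libraries (log2 fold change 1.39, SE 0.36, limma adjusted p = 0.207). With TMM-type scaling Txnl1 passed the threshold and was higher in SKO, by 1.24 on the log2 scale (limma adjusted p = 0.0455). The ubiquitin ligase gene Ube3a had 44.7, 36.3 and 39.1 FPKM against 10.3, 24.7 and 18.4 FPKM. For both Txnl1 and Ube3a the groups did not overlap.

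Of that list, 5 genes of assembly, control and deubiquitination chosen by name had overlapping groups: Pomp, Nfe2l1, Usp14, Uchl5 and Adrm1. Pomp, the maturation factor of the core particle, had 18.9, 34.0 and 53.3 FPKM in the wild-type libraries against 48.2, 50.9 and 72.0 FPKM in the SKO libraries. Nfe2l1, the regulator named above, had 6.12, 4.38 and 3.26 FPKM against 3.41, 3.22 and 3.38 FPKM. The deubiquitinase genes gave 6.78, 10.9 and 4.83 FPKM against 8.81, 13.2 and 15.7 FPKM for Usp14. For Uchl5 the values were 65.6, 75.0 and 74.1 FPKM against 40.0, 75.3 and 60.4 FPKM. Adrm1, the gene of the ubiquitin receptor that recruits the product of Uchl5, had 5.57, 6.38 and 3.50 FPKM against 5.31, 7.85 and 5.65 FPKM.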

How the data were processed

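Ribosome footprints of 3 wild-type and 3 Eif5a SKO samples were analysed from 1 table of FPKM values, 1 per gene and library, which the authors computed and deposited. The submitters' processing notes name cutadapt, Bowtie2, STAR, Cufflinks and mm10 without roles; how reads with several positions were counted, and with which annotation, is not given in the sources used here. The table's cKO columns were assigned to the SKO samples by genotype and replicate number. FPKM are relative, so abundant rows of a library shift all others.

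Testing used limma 3.58.1 under R 4.3.3, with an intensity trend in eBayes, for rows averaging 1 FPKM or more, on log2(FPKM + 1), which understates changes of low genes. SKO was the contrast, and adjustment was by Benjamini-Hochberg over 15578 rows. The fit was also run on simulated data with independent noise and no shift of whole libraries, so that run does not cover such shifts. As no label gives separate animals, p-values reflect only how far these samples spread, which may be technical. The 2 tested ratios between genes were tested as differences of log2(FPKM + 1), by exact permutation over libraries.

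All proteasome genes are accounted for. Values per library were planned for genes past the threshold, for the 2 with the smallest p and the 2 densest of each class, for catalytic, testis, activator, inhibitor and assembly genes, and for part of the associated list, of which 1 gene is not reported here. Psmd9, Psmd14, the ratios to Psmb6 and those of Psmb5 to Psmb7 and Psmd5 to Psmd10 were added after their values were seen. Members and lists were chosen with earlier results of these data known. Coordinates and sequences are RefSeq's on GRCm38. Alternatives were other pseudocounts, filters, scalings, eBayes options, a replicate block and leaving out each library.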

Additional observations from a re-analysis of the deposited data

How the results depend on the processing

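The count of proteasome genes past the limma threshold was 0 with the deposited values and 4 after quantile normalization. The count of all rows past it, 20 with the deposited values, was 4 with a pseudocount of 5, 5 without a filter, 86 with a mean of at least 5 FPKM, 159 after TMM-type scaling, 446 after quantile normalization and 63 with robust eBayes. Leaving out 1 library gave 4 (without wild-type replicate 3) to 31 (without SKO replicate 2), and 0 proteasome genes each time. Of the 32 tested associated genes 1 passed after TMM-type scaling, beside 1.02% of all tested rows. After quantile normalization 3 of them passed, beside 2.86% of all tested rows. Deviations from the group mean of same-numbered samples had correlations of 0.0926, 0.000158 and 0.0243, and those of other combinations ran from -0.107 to 0.0799. With 3 samples in each group these values cannot settle whether the numbers pair the samples. With the replicate block 5 rows and 0 proteasome genes passed. The median of the assembly chaperones was -0.39 with a mean of at least 5 FPKM, where fewer of them were tested.

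Genes near the all-row median changed side. Psmb6, Psmd4 and Psme4 were at -0.0170, -0.0336 and -0.0214 with a pseudocount of 0.1, -0.0578, -0.0776 and -0.0659 with a mean of at least 5 FPKM, -0.0181, -0.0355 and -0.0207 after TMM-type scaling, -0.147, -0.127 and -0.0746 after quantile normalization, and -0.0213, -0.0386 and -0.0260 after TPM rescaling. Psmc3 was at 0.0549 with a pseudocount of 5 and 0.0421 without a filter, and Psmc5 at -0.0499 after quantile normalization. Leaving out 1 library gave -0.15 to 0.27 for Psmb6, -0.19 to 0.17 for Psmc3, -0.0468 to 0.36 for Psmc5, -0.12 to 0.56 for Psmd2, -0.39 to 0.21 for Psmd4, -0.19 to 0.20 for Psme4, -0.0750 to 0.25 for Psmg2 and -0.39 to 0.0819 for Psmg3. The cause was not tested. The planned ratios of Psmb8 to Psmb5 and of Psmb9 to Psmb6 were not run. The Psmb5 to Psmb6 log2 difference was -1.10 as plain FPKM and -0.90 with a pseudocount of 5; the ratios to Psmb6 and Psmd10 were chosen after seeing the data. Absolute depth is unknown, which limits the genes of few FPKM most.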
